A study of Mus musculus with 18 samples.

Results

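Messenger RNA was sequenced from the hemibrains of 18 targeted-replacement mice, which carry a human APOE allele in place of mouse Apoe, at an age of 12 months. The 6 APOE3 mice are described here against the APOE2 and the APOE4 mice together. The genes reported were those at which APOE3 differed from APOE2 and also differed from APOE4 in the same direction. They numbered 21 of the 18717 genes with enough reads to be tested (0.112%), 11 of them higher in APOE3 (0.0588% of genes tested) and 10 of them lower (0.0534%). The groups were APOE3/APOE3, APOE2/APOE2 and APOE4/APOE4 homozygotes on a C57bl/6 strain background, each with 3 females and 3 males, so the APOE3 mice are themselves a replacement line and the set holds no mouse with the mouse Apoe allele. A hemibrain mixes the regions and cell types of one side of the brain, so fewer cells of a type and less RNA per cell cannot be told apart in these libraries.

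Apolipoprotein E is the main lipid carrier of the brain. Astrocytes, and microglia when activated, secrete it on lipoprotein particles that neurons and other cells take up through receptors of the LDL receptor family. The human isoforms differ by amino acid substitutions that change how the protein binds lipid and receptors. APOE3 is the most common human allele, while APOE4 is associated with a higher and APOE2 with a lower risk of Alzheimer's disease. A gene at which APOE3 stands apart from both does not follow that order.

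Each group had 6 libraries, with total counts between 43818967 and 50382463 in APOE3, 49545646 and 59394503 in APOE2, and 48841442 and 52761314 in APOE4. Levels are in CPM, counts scaled to library size, after TMM normalization. They are given as mean ± SD (n = 6) or as the lowest, median and highest mouse of a genotype, and they are not corrected for transcript length, so they compare mice and not genes. Differences are on the log2 scale, always APOE3 minus the other genotype, from an edgeR quasi-likelihood model of the 18 libraries with terms for genotype and sex. Calls required an adjusted p (Benjamini-Hochberg, over all genes tested) under 0.05. The comparisons with APOE2 and with APOE4 share the same 6 APOE3 mice. Transcripts of the mitochondrial genome took 3.35% to 3.83% of counts in APOE3, 3.31% to 4.73% in APOE2 and 3.21% to 4.44% in APOE4. Defining markers of neurons, astrocytes, oligodendrocytes, microglia, endothelium, choroid plexus and ependyma were all detected in every group, and the summed level of each marker set overlapped between APOE3 and the other genotypes. Pituitary hormone genes varied by library, with sums of 1.75 to 28.9 CPM in APOE3, 1.70 to 7.398 CPM in APOE2 and 2.06 to 166 CPM in APOE4. No principal component among the first 8 placed all 6 APOE3 libraries outside the range of the other 12.

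On the contrast of APOE3 with the average of the other genotype means, 334 genes were called, which is 1.78% of those tested, 196 higher (1.05%) and 138 lower (0.737%). Most of these calls rested on 1 of the other genotypes. APOE3 differed from APOE2 alone at 254 of them, from APOE4 alone at 48, from neither taken alone at 11 and from both in the same direction at 21. Taken pair by pair, 712 genes were called between APOE3 and APOE2 (3.8%), 383 higher in APOE3 (2.05%) and 329 lower (1.76%). Between APOE3 and APOE4 143 were called (0.764%), 66 higher (0.353%) and 77 lower (0.411%). Between APOE2 and APOE4, for scale, 1228 were called (6.56%). At 5 genes APOE3 differed from both in opposite directions, that is, it lay between them.

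All 10 that were lower in APOE3 have a gene name with a known or inferred product, whereas 8 of the 11 that were higher carry the clone or predicted names given to transcripts without an assigned function. By biotype 14 of the 21 are annotated as protein coding. At 15 of the 21 the 6 APOE3 libraries did not overlap the 12 others, 8 with every APOE3 library above and 7 with every APOE3 library below. Over all genes tested such a separation was seen at 23 (0.123%), with APOE3 above at 13 (0.0695%) and below at 10 (0.0534%). Since the members were chosen for their difference, nothing is read from that share. None of the 21 was called between APOE2 and APOE4, beside 6.56% of all genes tested. The 95% interval of that difference excluded 0 for Mab21l1 and Gm20186. The members were chosen with both other genotypes on the same side of APOE3, so nothing is read from that count either.

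Position was not used to choose the genes, and some of them lie near each other. Of the 21, 6 are in the first 5 Mb of mouse chromosome 7. That window holds 60 of the 18118 tested genes with a position. In 5 Mb windows that hold at least 2 members lie 12 of the 21, but these windows were picked because they hold members. The chromosome 7 genes are 3300002P13Rik (3421665 to 3423445, minus strand), Oscar (3609813 to 3616157, minus strand), Tmc4 (3665790 to 3677553, minus strand), Mboat7 (3677789 to 3693523, minus strand), Pirb (3711409 to 3720391, minus strand) and Lilra5 (4237754 to 4243463, plus strand), in GRCm38 by the GENCODE annotation. Tmc4 starts 236 bp from the end of Mboat7, and Lilra5 lies 517363 bp beyond Pirb. The promoters below, from 250 bases before to 50 bases after the RefSeq start (GRCm38.p6, 5′ to 3′ on the strand of the gene), belong to 4 members of the run from 3300002P13Rik to Pirb. Mboat7, which had the smallest difference of the run, is left out because its RefSeq promoter (3692937 to 3693236) lies wholly inside its GENCODE span. Of the 21 genes, 16 have such an entry. Capitals mark matches on either strand to any of 4 motifs. The TATA box was searched as TATAAA and reads TTTATA when it lies on the other strand. The CCAAT box was searched by these letters and reads ATTGG on the other strand. The GC box was searched as GGGCGG and reads CCGCCC on the other strand. The ETS motif was searched only in the form GAGGAA, recognised by factors such as the myeloid regulator PU.1, and reads TTCCTC on the other strand. Its shorter core GGAA was not searched, and matches to GGAA alone are not marked. The E box CAGCTG, held by 16.3% of all promoters, was searched too and had no match here. No match overlapped another in the 4 sequences printed.

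Oscar, chr7:3616108-3616407, minus strand: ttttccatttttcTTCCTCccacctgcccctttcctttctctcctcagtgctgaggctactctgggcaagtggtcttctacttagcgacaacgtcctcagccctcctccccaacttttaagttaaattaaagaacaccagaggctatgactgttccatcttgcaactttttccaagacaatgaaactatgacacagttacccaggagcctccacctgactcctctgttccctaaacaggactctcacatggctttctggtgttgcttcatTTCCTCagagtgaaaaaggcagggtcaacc

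Pirb, chr7:3720333-3720632, minus strand: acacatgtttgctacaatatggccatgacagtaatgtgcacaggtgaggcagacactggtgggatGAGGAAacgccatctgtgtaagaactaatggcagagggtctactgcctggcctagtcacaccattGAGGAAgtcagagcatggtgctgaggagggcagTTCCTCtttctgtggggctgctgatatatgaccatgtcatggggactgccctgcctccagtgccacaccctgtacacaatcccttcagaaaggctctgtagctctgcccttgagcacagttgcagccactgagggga

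Tmc4, chr7:3677504-3677803, minus strand: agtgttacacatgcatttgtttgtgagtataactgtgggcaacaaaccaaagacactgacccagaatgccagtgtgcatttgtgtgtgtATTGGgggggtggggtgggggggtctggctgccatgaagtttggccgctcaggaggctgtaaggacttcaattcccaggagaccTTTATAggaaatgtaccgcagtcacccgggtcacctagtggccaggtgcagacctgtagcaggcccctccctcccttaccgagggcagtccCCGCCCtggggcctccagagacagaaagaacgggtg

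3300002P13Rik, chr7:3423396-3423695, minus strand: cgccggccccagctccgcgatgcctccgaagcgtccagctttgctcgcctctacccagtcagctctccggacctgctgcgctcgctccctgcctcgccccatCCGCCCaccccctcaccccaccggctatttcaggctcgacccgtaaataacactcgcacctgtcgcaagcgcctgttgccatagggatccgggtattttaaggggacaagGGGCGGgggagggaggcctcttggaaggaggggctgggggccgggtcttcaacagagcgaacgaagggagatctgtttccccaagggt

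The immune receptor genes Oscar and Pirb both hold the GAGGAA motif and no TATA, CCAAT or GC box. Oscar has it 237 bases before and 21 bases after the start, and Pirb has it 185, 120 and 87 bases before the start. Tmc4 holds a TATA box 77 bases and a CCAAT box 161 bases before the start and a GC box 15 bases after it, and 3300002P13Rik holds GC boxes 148 and 38 bases before. Among the 32851 mouse promoters in the table, 28.3% hold the GAGGAA motif, 35.7% the GC box, 37.4% the CCAAT box and 13.6% the TATA box. Of the 16 member promoters, 6 hold the GAGGAA motif and 11 the GC box. Besides Oscar and Pirb, the GAGGAA motif is held by Lilra5, Thnsl1, Gm20878 and Gm13306, so it also occurs outside the immune receptor genes. A match describes these letters only.

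Oscar, the osteoclast-associated receptor, an activating immunoglobulin-like receptor of osteoclasts and other myeloid cells that binds collagen, had the largest difference among the genes lower in APOE3. Its level was 0.1105 CPM in the lowest, 0.142 CPM in the median and 0.229 CPM in the highest APOE3 mouse, against 1.49, 2.25 and 2.57 CPM in APOE2 mice and 1.94, 2.61 and 2.86 CPM in APOE4 mice. Every APOE3 mouse was far below every other mouse, and APOE2 and APOE4 mice overlapped. Over the 6 libraries of a genotype there were 45 reads in APOE3, 693 in APOE2 and 758 in APOE4. The log2 difference was -3.75 against APOE2 (SE 0.20) and -3.94 against APOE4 (SE 0.20), and the larger of the adjusted p-values was 2.38e-12 (edgeR). In females the difference from the mean of the others was -3.83 and in males -3.87.

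Lilra5, a member of the leukocyte immunoglobulin-like receptor family that is known in humans as an activating receptor of monocytes, was also lower. It was scarce, with 31 reads in APOE3, 116 in APOE2 and 110 in APOE4, and its level was 0.110 ± 0.0768 CPM in APOE3, 0.368 ± 0.142 CPM in APOE2 and 0.361 ± 0.109 CPM in APOE4 (SD, n = 6 each). The log2 difference was -1.73 against APOE2 (SE 0.30) and -1.72 against APOE4 (SE 0.31), with an adjusted p of at most 0.00292 (edgeR). The highest APOE3 mouse, at 0.252 CPM, overlapped the lowest APOE2 mouse at 0.219 CPM and the lowest APOE4 mouse at 0.154 CPM. Lilra5 averaged below 0.5 CPM and was named after its values were seen.

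Pirb, the paired immunoglobulin-like receptor B, an inhibitory receptor of myeloid and B cells that binds MHC class I and has also been studied on neurons, went the other way. Its level was 0.801, 0.930 and 1.05 CPM in the lowest, median and highest APOE3 mouse, against 0.277, 0.538 and 0.716 CPM in APOE2 mice and 0.334, 0.396 and 0.454 CPM in APOE4 mice. All APOE3 mice were above all others, and the log2 difference was 0.86 against APOE2 (SE 0.15) and 1.21 against APOE4 (SE 0.16), with adjusted p-values of 0.000851 and 7.02e-05 (edgeR). Pirb shares over 50% of its longest transcript at an identity of at least 96.6% with Pira2, Gm15922 and Gm14548, so its count is uncertain where reads fit more than 1 of them. These copies held few reads, 15 in APOE3, 3 in APOE2 and 1 in APOE4 for Gm15922, and 3, 0 and 0 for Pira2 in the same order of genotypes.

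Tmc4 and Mboat7 are next to each other and both were lower. Tmc4, a transmembrane channel-like protein that in mouse taste cells forms a chloride channel, was at 2.08, 2.54 and 3.50 CPM in the lowest, median and highest APOE3 mouse, against 4.03, 6.47 and 7.31 CPM in APOE2 mice and 4.80, 6.68 and 7.61 CPM in APOE4 mice. The log2 difference was -1.14 against APOE2 (SE 0.16) and -1.30 against APOE4 (SE 0.16), with an adjusted p of at most 9.84e-05 (edgeR). Mboat7, the acyltransferase that places arachidonic acid on lysophosphatidylinositol, was at 158.9 ± 3.73 CPM in APOE3, 182 ± 5.77 CPM in APOE2 and 189 ± 10.8 CPM in APOE4 (SD, n = 6 each). The difference was small next to that of Tmc4, at -0.19 against APOE2 (SE 0.04) and -0.25 against APOE4 (SE 0.04), with an adjusted p of at most 0.00352. At neither gene did an APOE3 mouse reach the lowest mouse of another genotype, which for Mboat7 means 165.7 CPM in the highest APOE3 mouse against 172 CPM and 171 CPM in the lowest APOE2 and APOE4 mice.

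The transcript 3300002P13Rik, annotated as a long intergenic non-coding RNA, stood at 0.784, 0.868 and 1.03 CPM in the lowest, median and highest APOE3 mouse, against 0.118, 0.181 and 0.311 CPM in APOE2 mice and 0.0946, 0.121 and 0.231 CPM in APOE4 mice. Its log2 difference was 2.18 against APOE2 (SE 0.21) and 2.65 against APOE4 (SE 0.22), with an adjusted p of at most 8.54e-08 (edgeR). APOE3 mice were all above the others. Its divergent neighbour Cacng6, on the plus strand from 3424195, which encodes a gamma subunit family member of voltage-gated calcium channels, had 1.48 ± 0.343 CPM in APOE3, 1.01 ± 0.195 CPM in APOE2 and 1.0003 ± 0.282 CPM in APOE4. Cacng6 was called on the contrast (log2 difference 0.58, SE 0.15, adjusted p = 0.0487) but from neither genotype alone, with adjusted p-values of 0.0781 against APOE2 and 0.167 against APOE4 (edgeR).

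**Figure D1:**
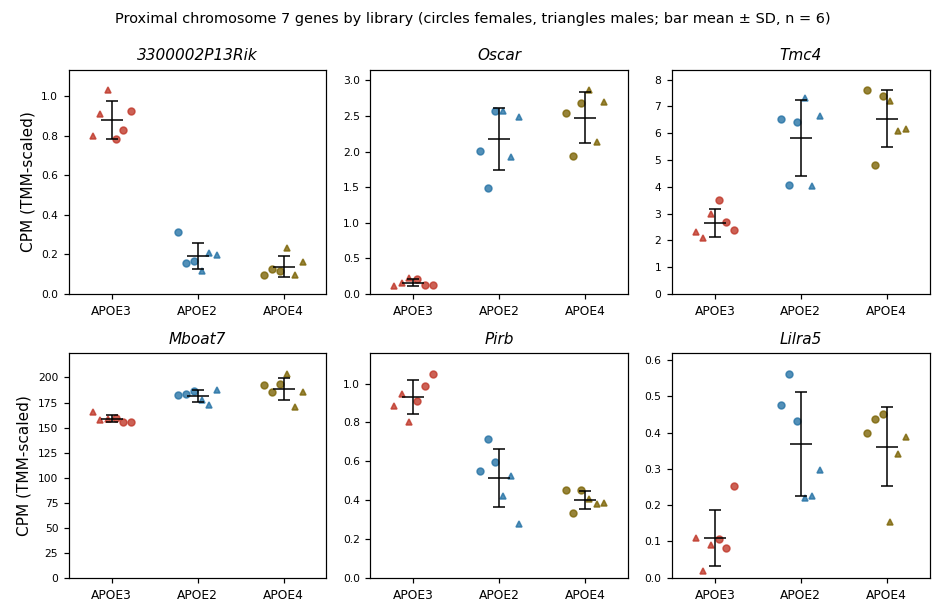
Levels of the 6 genes of proximal chromosome 7 in CPM (vertical axes, each starting at 0) for every mouse, with APOE3 left of APOE2 and APOE4, circles for females and triangles for males, and horizontal lines with bars for mean and SD over 6 mice. Oscar, Tmc4 and Mboat7 have all APOE3 mice below the others, 3300002P13Rik and Pirb have all APOE3 mice above them, and at Lilra5 the groups overlap.

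The genes between them did not move as a block. In the stretch from 3171665 to 3970391 of chromosome 7, which reaches 250 kb past the outer members of the run from 3300002P13Rik to Pirb, 21 genes were tested and 5 of them (23.8%) differed from both genotypes, 3 lower and 2 higher. On the contrast 6 of the 21 (28.6%) were called, beside 1.78% over all genes. The stretch was drawn around 5 members, and every member was called on the contrast. Both shares follow largely from that choice, so nothing is read from them. The other 16 had log2 differences from the mean of APOE2 and APOE4 of -0.45 to 0.58, with a median of -0.0074. Among these, the splicing factor gene Prpf31 was at 39.4 ± 1.47 CPM in APOE3, against 39.5 ± 1.69 CPM in APOE2 mice and 39.8 ± 2.02 CPM in APOE4 mice. The ribosomal protein gene Rps9 was at 75.9 ± 4.13 CPM in APOE3, against 75.95 ± 6.43 CPM in APOE2 mice and 78.5 ± 4.54 CPM in APOE4 mice. Neither passed the test (adjusted p of 0.959 for Prpf31 and 0.887 for Rps9, edgeR). These are flat examples, and others of the 16 moved further in either direction. Cacng6, described above, was called on the contrast. The non-coding transcript Gm44257 had a difference of -0.45 (SE 0.13, adjusted p = 0.0828, edgeR). Ndufa3 at -0.098 and Tfpt at 0.085 had unadjusted p-values of 0.0493 and 0.0472 (edgeR). Tsen34, a tRNA splicing endonuclease subunit that overlaps Mboat7 by 661 bp on the opposite strand, had a difference of 0.14 (SE 0.04, adjusted p = 0.101), in the direction opposite to that of Mboat7. Whether the counting kept strands apart is not given in the sources used here, so reads in such overlaps cannot be assigned to a strand.

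**Figure D2:**
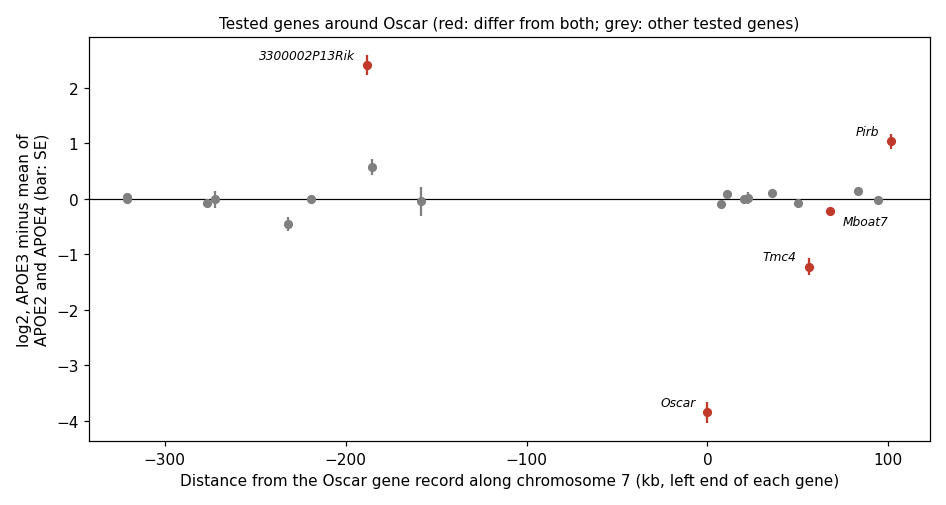
Log2 difference of APOE3 from the mean of APOE2 and APOE4 (vertical axis) against the distance of each gene's left end from that of Oscar in kb (horizontal axis) for the 21 genes tested around Oscar, with bars for SE. The 5 red points are the genes that differ from both genotypes, and the 16 grey points are the others, which lie between -0.45 and 0.58.

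The mouse Apoe entry is on the same chromosome (19696109 to 19699188), 16.1 Mb from Oscar. Its level was 42.5 ± 3.13 CPM in APOE3, against 39.4 ± 2.57 CPM in APOE2 mice and 44.8 ± 5.11 CPM in APOE4 mice, and the contrast had an adjusted p of 0.949 (edgeR). The entry collects only reads that align to the mouse sequence, and where in the gene they fall was not examined. It is therefore not taken as a measure of the human transcript or of its isoform. Within 5 Mb of Apoe 114 genes were tested, 1 was called on the contrast and 0 differed from both genotypes, beside 1.78% and 0.112% of all genes tested, so these counts are near those shares. By window, the first 5 Mb of chromosome 7 had 13 of 60 genes called on the contrast (21.7%), and 6 of these differed from both. Other windows of 5 Mb had shares as high on the contrast, among them 15 to 20 Mb of chromosome 6 with 4 of 15 (26.7%), 2 of them different from both, and 145 to 150 Mb of chromosome 4 with 13 of 58 (22.4%), 0 of them different from both.

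On chromosome 2 a pair of neighbours differed in opposite directions. Thnsl1 (21205724 to 21215009), a threonine synthase-like gene of little known function in mammals, was at 15.4, 17.1 and 18.9 CPM in the lowest, median and highest APOE3 mouse, against 24.5, 27.04 and 29.02 CPM in APOE2 mice and 20.7, 24.2 and 28.3 CPM in APOE4 mice. Its log2 difference was -0.66 against APOE2 (SE 0.07) and -0.53 against APOE4 (SE 0.07), with an adjusted p of at most 3.35e-05 (edgeR). The non-coding transcript Gm13375 (20969054 to 20969997), 235727 bp away, was at 10.4, 10.99 and 12.6 CPM in the lowest, median and highest APOE3 mouse, against 5.38, 6.88 and 7.53 CPM in APOE2 mice and 5.13, 6.32 and 7.86 CPM in APOE4 mice. Its differences were 0.74 (SE 0.09) and 0.82 (SE 0.09), and all APOE3 mice were above the others at Gm13375 and below them at Thnsl1.

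Chromosomes 4 and 6 each hold a pair of predicted genes that were higher in APOE3. Gm13306 (chromosome 4, 42153436 to 42158839) was at 2.07 ± 0.348 CPM in APOE3, 0.743 ± 0.110 CPM in APOE2 and 0.704 ± 0.210 CPM in APOE4, and Gm20878, 210312 bp away, was at 0.660 ± 0.167, 0.258 ± 0.0657 and 0.199 ± 0.101 CPM in the same groups. Both are close to identical over part of their transcripts to Ccl27 chemokine genes, Gm13306 to Ccl27b (99.7% identity) and Gm20878 to Ccl27a (98.1% identity), so their counts are uncertain. Ccl27b had 0 reads in every group, while Ccl27a had 7419 reads in APOE3, 7795 in APOE2 and 7361 in APOE4. On chromosome 6, Gm43844, which lies within St7 on the same strand, was at 1.12 ± 0.342 CPM in APOE3, 0.269 ± 0.133 CPM in APOE2 and 0.248 ± 0.0765 CPM in APOE4.

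Gm20186 (chromosome 6, 18845910 to 18848207, minus strand), a long intergenic non-coding RNA, was close to an on-off difference. It had 244 reads over the 6 APOE3 libraries, 0 reads over the 6 APOE2 libraries and 6 reads over the 6 APOE4 libraries. APOE3 mice ranged from 0.679 to 1.05 CPM with a median of 0.853 CPM, against 0 CPM in every APOE2 mouse and at most 0.0417 CPM in APOE4 mice. Against a floor of 3 reads summed over the APOE2 group the level in APOE3 was at least 91.1-fold higher, and against APOE4 the ratio was 43.8 with an exact 95% interval of 19.8 to 121 that covers counting error only. Its adjusted p was at most 5.18e-09 (edgeR). Part of its sequence is shared with AC160336.1 (91.2% identity) and Gm12840 (97.0% identity), which leaves its count uncertain; Gm12840 had 0 reads in every group.

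Fank1 (chromosome 7, 133776861 to 133881532), with no other member in its 5 Mb window, was higher in APOE3. The gene is named for its fibronectin type III domain and ankyrin repeats and is known from testis. Its span overlaps Dhx32 by 5866 bp on the opposite strand, so reads in that overlap cannot be assigned to a strand. Fank1 was at 4.46, 4.85 and 5.24 CPM in the lowest, median and highest APOE3 mouse, against 2.83, 3.25 and 3.50 CPM in APOE2 mice and 2.48, 3.05 and 3.27 CPM in APOE4 mice. The groups of APOE3 and the other genotypes did not overlap, and the differences were 0.61 against APOE2 (SE 0.08) and 0.70 against APOE4 (SE 0.08), with an adjusted p of at most 1.69e-05 (edgeR).

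Trmt61b (chromosome 17, 71557027 to 71598755, minus strand) was higher on average but not in every mouse. The symbol is that of a methyltransferase of mitochondrial tRNA, while the GENCODE entry that bears it has the biotype antisense and is not among the 14 annotated as protein coding. APOE3 females had 18.3, 13.3 and 17.6 CPM and APOE3 males had 8.09, 7.51 and 14.1 CPM, against 7.34 to 9.01 CPM in the APOE2 mice and 7.44 to 8.24 CPM in the APOE4 mice. The APOE3 males at 8.09 and 7.51 CPM were within the range of the other genotypes, and the other 4 APOE3 mice were above it. The differences were 0.64 against APOE2 (SE 0.15) and 0.72 against APOE4 (SE 0.15), with adjusted p-values of 0.0148 and 0.0217 (edgeR). The call was lost without any of 7 libraries, APOE3 replicates 3, 4 and 6, APOE2 replicate 2 and APOE4 replicates 1, 2 and 3, with an adjusted p of up to 0.0776. Spdya, a cyclin-dependent kinase activator whose annotated span overlaps that of Trmt61b by 32507 bp on the other strand, followed the same mice, with 2.78, 2.44 and 3.09 CPM in APOE3 females and 1.08, 1.64 and 2.65 CPM in APOE3 males. It was at 1.11 to 1.65 CPM in APOE2 mice and 0.999 to 1.93 CPM in APOE4 mice, and it was called on the contrast (log2 difference 0.63, adjusted p = 0.0478) but is not among the 21. Of 8 genes tested that overlap a member, Spdya was the only one called on the contrast.

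At Nalcn, Klhl32 and Zc3h7b APOE3 was lower by small amounts and without overlap. Nalcn, the sodium leak channel that helps set the resting potential of neurons, was at 129, 134 and 138 CPM in the lowest, median and highest APOE3 mouse, against 148, 152 and 176 CPM in APOE2 mice and 149, 156 and 166 CPM in APOE4 mice. Its differences were -0.23 against APOE2 and -0.24 against APOE4 (SE 0.04 each, adjusted p at most 0.00379, edgeR). Klhl32, of the Kelch-like family of ubiquitin ligase adaptors, was at 20.1 ± 0.698 CPM in APOE3, 24.9 ± 1.35 CPM in APOE2 and 23.9 ± 1.48 CPM in APOE4, with differences of -0.31 and -0.25 (SE 0.05 each, adjusted p at most 0.00759, edgeR). Zc3h7b, a zinc finger protein that binds RNA, was at 169.5, 173 and 202 CPM in the lowest, median and highest APOE3 mouse, against 216, 219.9 and 243 CPM in APOE2 mice and 211, 225 and 237 CPM in APOE4 mice. Its difference was -0.32 against each genotype (SE 0.05 each, adjusted p at most 0.000163, edgeR).

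A pair of developmental genes was lower with less separation. Mab21l1, needed in the mouse for eye development and lying inside Nbea on the opposite strand, was at 1.78, 1.99 and 2.67 CPM in the lowest, median and highest APOE3 mouse, against 2.20, 2.95 and 3.21 CPM in APOE2 mice and 3.08, 3.48 and 4.04 CPM in APOE4 mice. APOE3 overlapped APOE2 through 1 APOE3 mouse and did not overlap APOE4. Its differences were -0.46 against APOE2 (SE 0.11, adjusted p = 0.0136) and -0.77 against APOE4 (SE 0.11, adjusted p = 0.00017, edgeR), and the difference of APOE2 from APOE4 was -0.31 with a 95% interval of -0.52 to -0.087 (adjusted p = 0.0908). Pou4f2, a POU domain factor of retinal ganglion cells and other projection neurons, had 31 reads in APOE3, 100 in APOE2 and 119 in APOE4, and its mice overlapped. It lay just inside the threshold, with adjusted p-values of 0.0453 against APOE2 and 0.0305 against APOE4, and was named after its values were seen. The call was lost when any of 12 of the 18 libraries was left out, and the larger adjusted p then reached 0.119, without APOE2 replicate 1 (edgeR).

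The remaining members were scarce transcripts that were higher in APOE3. Gm12576, a non-coding RNA of chromosome 11, was at 0.845 ± 0.174 CPM in APOE3, 0.404 ± 0.0940 CPM in APOE2 and 0.418 ± 0.145 CPM in APOE4. Its call was lost without any of 5 libraries, APOE3 replicates 1, 5 and 6 and APOE4 replicates 2 and 5, with an adjusted p of up to 0.0638 (edgeR). The processed pseudogene 4930526A20Rik was at 0.321 ± 0.0262 CPM in APOE3, 0.0799 ± 0.0357 CPM in APOE2 and 0.114 ± 0.0573 CPM in APOE4, without overlap of APOE3 and the others. It lies within Tcp11 on the same strand and is 98.5% identical over 76.8% of its length to Tsen34, a gene with 9521 reads in APOE3, 9640 in APOE2 and 9289 in APOE4, so its count is uncertain. The predicted genes are described because the naming rule counts them without naming them, and they were chosen after their values were seen. Over the 21 members 6 averaged under 0.5 CPM, 13 overlap another annotated gene and 10 of these overlaps are with a gene on the other strand.

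**Figure D3:**
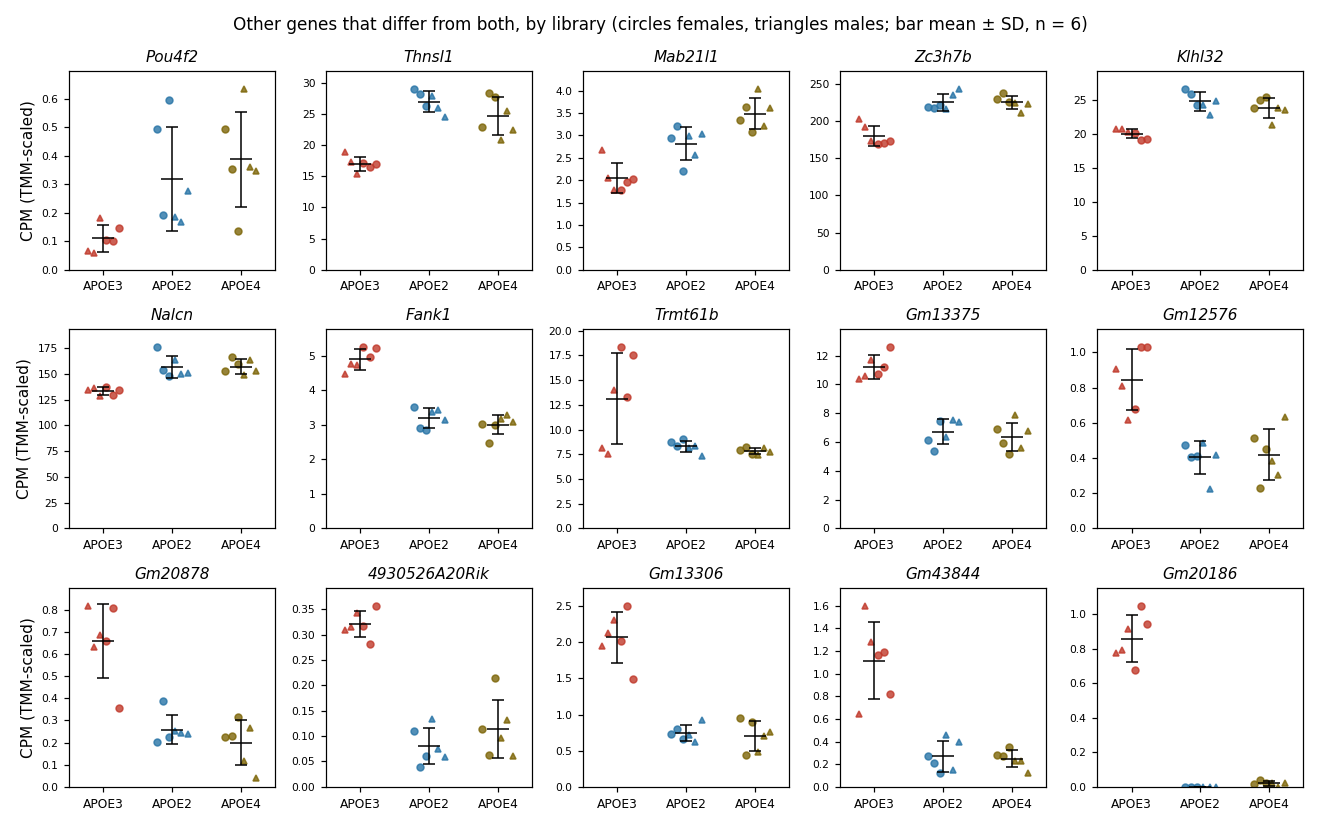
Levels in CPM (vertical axes, each starting at 0) of members outside proximal chromosome 7 in every mouse, with APOE3 left of APOE2 and APOE4, circles for females and triangles for males, and horizontal lines with bars for mean and SD over 6 mice. At Gm20186 all APOE2 mice are at 0, and at Trmt61b the males at 8.09 and 7.51 CPM lie among the other genotypes.

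**Figure D4:**
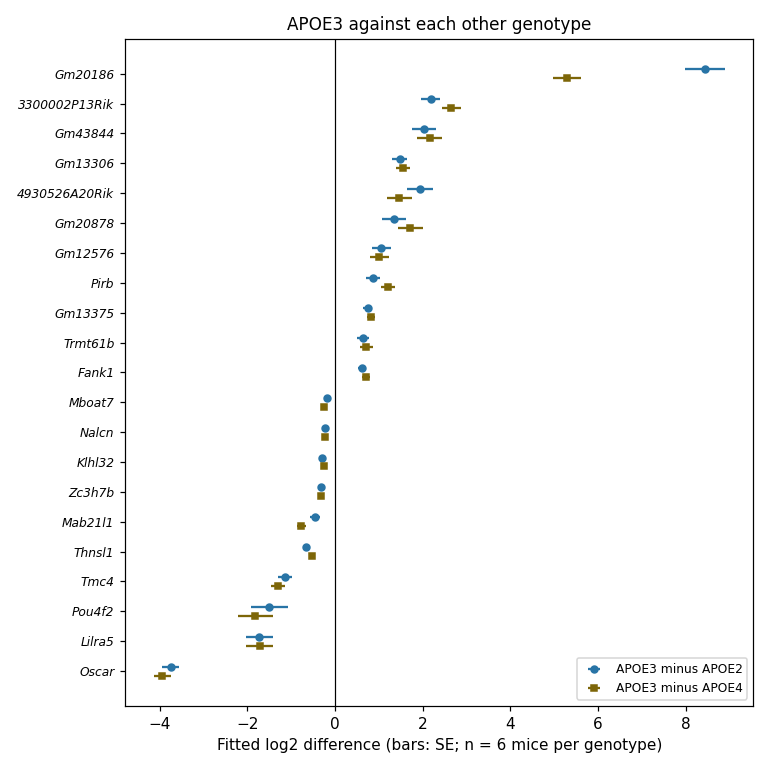
Fitted log2 difference of APOE3 from APOE2 and from APOE4 (horizontal axis, blue circles for APOE2 and brown squares for APOE4) with bars for SE, for the 21 members. The pair of values lies on the same side of 0 for every member, as the rule requires, from -3.75 and -3.94 for Oscar to the value against 0 reads for Gm20186, which depends on the prior count and is no bound.

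Just outside the threshold were Cckbr, the brain cholecystokinin receptor, Pcdhb3, a clustered protocadherin, and Tox2, a nuclear factor of the HMG box family, named here only as the neighbours of the limit. Cckbr was at 52.5 ± 2.34 CPM in APOE3, 44.7 ± 2.15 CPM in APOE2 and 46.1 ± 2.47 CPM in APOE4, with adjusted p-values of 0.00211 against APOE2 and 0.0534 against APOE4. Tox2 was at 35.1 ± 1.15 CPM in APOE3, 40.0 ± 1.93 CPM in APOE2 and 39.9 ± 2.25 CPM in APOE4, with 0.0163 and 0.0555, and Pcdhb3 had 0.0425 and 0.0534 (edgeR). In the authors' deposited table of DESeq2 comparisons, 32 genes differed from both genotypes in the same direction, 16 higher and 16 lower in APOE3. All 21 members were among these genes of the authors' deposited table, and so were Cckbr, Pcdhb3 and Tox2. The authors' table comes from the same series of mice, so nothing is read from that overlap. The authors' deposited table gives Oscar a log2 fold change of 3.78 for APOE2 over APOE3, which has the opposite sign to the differences above, and of -3.96 for APOE3 over APOE4.

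The sexes were compared because each genotype had 3 females and 3 males. All 21 members lay on the same side in females and in males, and none was called for a difference between the sexes, although 3 had an unadjusted p under 0.05. The members were chosen from a fit of both sexes together, which favours the same side in each. Nothing is therefore read from the count of members on the same side. For Trmt61b the difference from the mean of the others was 0.99 in females and 0.33 in males, with an adjusted p of 0.426 for the difference between them (edgeR). Over all genes the sex difference of the contrast was called at 2 (0.0107%), while 1417 (7.57%) had an unadjusted p under 0.05. Btg2, an anti-proliferative immediate early gene, was at 45.7, 42.1 and 28.7 CPM in APOE3 females and 12.1, 12.8 and 12.9 CPM in APOE3 males. It was at 13.5, 14.02 and 11.1 CPM in APOE2 females and 12.4, 15.01 and 22.1 CPM in APOE2 males, and at 21.4, 11.97 and 12.9 CPM in APOE4 females and 36.1, 35.6 and 27.7 CPM in APOE4 males. So APOE3 females were above the other females and APOE3 males below the APOE4 males. The contrast in females minus that in males was 2.35 for Btg2 and -0.51 for Spred2, an inhibitor of Ras and ERK signalling, each with an adjusted p of 0.0266 (edgeR).

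Gene lists for cell types, brain regions, endosomes, lipids, stress and immunity held 531 genes that were tested, and 0 of them differed from both genotypes, beside 0.112% of all genes tested. On the contrast 19 of the 531 were called, beside 1.78% of all genes tested, and each of these differed from 1 of the other genotypes and not from both. The median log2 difference over all 18717 genes was 0.0021. The choroid plexus list had a median of -0.31, and all 24 of its members tested were below 0. Of these 24, 0 were called higher and 2 lower. Lower medians were found for the immunoglobulin and pituitary lists, with 6 and 5 genes tested. In the choroid plexus list Prlr, the prolactin receptor, was at 12.7 ± 3.21 CPM in APOE3, 21.9 ± 6.91 CPM in APOE2 and 16.0 ± 3.77 CPM in APOE4 (log2 difference -0.54, adjusted p = 0.0459). Tmem72, a transmembrane protein of kidney and choroid plexus, was at 6.20 ± 1.60 CPM in APOE3, 8.18 ± 2.48 CPM in APOE2 and 15.8 ± 4.21 CPM in APOE4 (log2 difference -0.87, adjusted p = 0.0471, edgeR). The abundant plexus product transthyretin, Ttr, was at 584 ± 77.3 CPM in APOE3, 688 ± 266 CPM in APOE2 and 615 ± 123 CPM in APOE4, with an adjusted p of 0.844. In a hemibrain the amount of choroid plexus taken with the tissue was not measured separately, and its part in these values was not tested.

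Endosomes and exosomes are named in the series title. The counts for their lists stand beside 1.05% of all genes called higher and 0.737% called lower, and are too small to set apart from those shares. Of 40 endosome and Rab genes tested 1 was called higher, Wdfy1, a phosphoinositide-binding endosomal protein, at 62.5 CPM in APOE3, 63.8 CPM in APOE2 and 20.1 CPM in APOE4, so that the call came from APOE4. Of 29 genes of exosome formation 1 was called lower (Sytl1), and of 33 lysosomal genes 1 was called higher (Glb1). Their medians were -0.029, 0.00044 and -0.0013. Among 24 genes of cholesterol synthesis and 22 of LXR targets and lipid carriers 0 were called, with medians of 0.031 and 0.020.

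Of 19 oligodendrocyte and myelin genes 0 were called and 18 were below 0, with a median of -0.11. Of 21 microglial genes 1 was called higher (Laptm5) and 1 lower (Itgax), with a median of 0.051, and of 16 astrocyte genes 2 were called lower (Serpina3n and Cd109). Serpina3n, a serine protease inhibitor of reactive astrocytes, was at 21.3 CPM in APOE3, 21.9 CPM in APOE2 and 142 CPM in APOE4, so the call came from APOE4 and the adjusted p against APOE2 was 0.747. Of 20 heat shock and chaperone genes 2 were called higher, among them Hspa8, the constitutive heat shock cognate chaperone, at 246 CPM in APOE3, 30.7 CPM in APOE2 and 249.8 CPM in APOE4, so the call came from APOE2 and the adjusted p against APOE4 was 0.978 (edgeR). Copies were not sought for Hspa8, so whether reads fit other genes was not tested and its count is uncertain. The neuronal immediate early list had 0 of 20 called and a median of 0.24 on the contrast, made of a median of 0.73 against APOE2 and of -0.13 against APOE4. Of 9 mitochondrially encoded genes 0 were called, all 9 were below 0 and the median was -0.17.

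**Figure D5:**
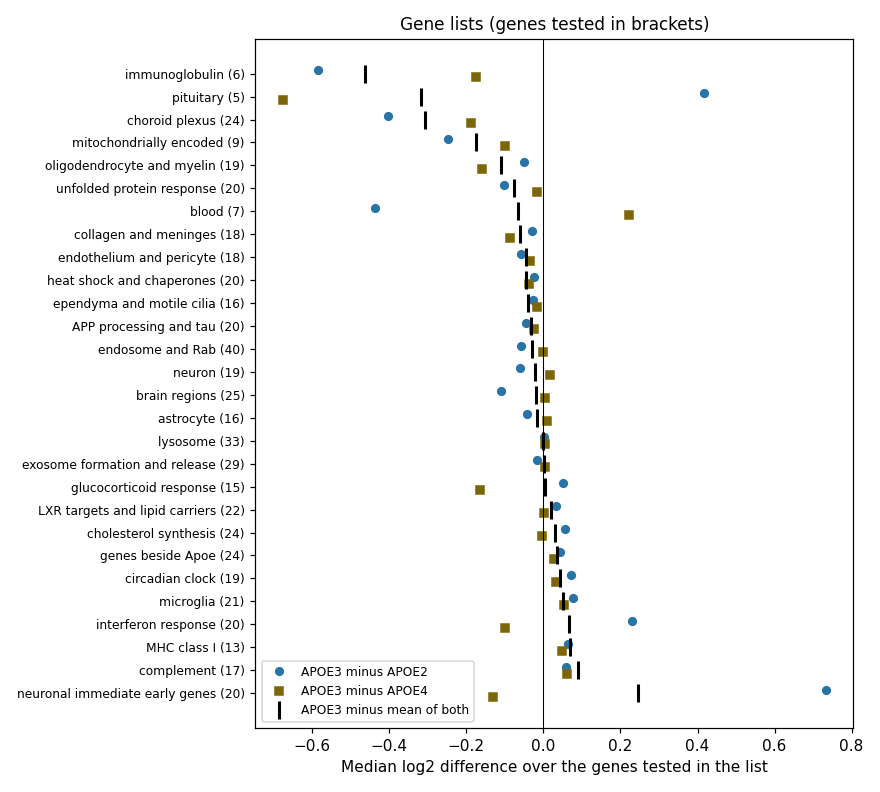
Median log2 difference of APOE3 from the mean of APOE2 and APOE4 (black bars) and from each of them (blue circles for APOE2, brown squares for APOE4) for the gene lists, with the number of genes tested in brackets. The choroid plexus list lies at -0.31 and the immediate early list at 0.24, beside 0.0021 over all genes tested.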

How the data were processed

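The labels name 18 mice, 6 per genotype. Stranded polyA libraries were read as single reads over shared lanes, per the labels' protocols. The deposited table holds the authors' raw counts of reads for each gene symbol. The submitters' processing notes name Trimmomatic, STAR 2.7.0, featureCounts, DESeq2 and the build GRCm38. Which annotation release, strand setting and DESeq2 model were used is not given in the sources. Also deposited were the authors' log2 fold changes and adjusted p-values for genotype pairs, which are quoted only where the authors' table is named.

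The table held 52459 symbols. Of these, 26 had become dates, took 0.304% to 0.322% of a library and were left out. Counts were tested in edgeR 4.0.16 under R 4.3.3 by quasi-likelihood F tests (robust, TMM, filterByExpr by genotype), with all 18 libraries in 1 model of genotype plus sex. The sex difference was estimated with a separate mean for each genotype in each sex. The biological coefficient of variation was 0.0845. Labels name separate mice, and no pair of replicates agreed within sampling noise (chi-square per degree of freedom of 5.69 to 46.3).

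The members and lists were chosen with earlier results of these data known, so no list is tested and no p is given over a list. Genes were named by a rule: members that average at least 0.5 CPM and are not predicted, Apoe, up to 3 members per list by smallest p, and neighbours within 250 kb of a run of at least 3 members. Other genes named were chosen after their values were seen. Not every neighbour that the rule takes is reported here. Positions come from GENCODE mouse release M21, in which 47976 symbols (91.5%) matched 1 gene. Copies were sought for the members only, with blastn between longest transcripts, at an identity of at least 90% over at least 50% of the query. Alternatives were other scaling factors, filters, thresholds and tools, no sex term, 1 sex alone, subsets of mice by title letter, pairs fitted alone and leaving out each library. The script was tested on simulated data.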

Additional observations from a re-analysis of the deposited data

Results flagged for a closer look

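Of 63 groups of 6 mice, 1 for each member and genotype, 5 held a mouse that stood apart from the rest of its group, and chance flags about 1 in 20 groups. At Mab21l1 an APOE3 male was at 2.67 CPM while the next APOE3 mouse was at 2.06 CPM. At Gm12576 an APOE2 mouse was at 0.226 CPM, with the next at 0.407 CPM, and at Gm20878 an APOE2 mouse was at 0.387 CPM, with the next at 0.252 CPM. At Lilra5 an APOE4 mouse was at 0.154 CPM, with the next at 0.341 CPM, and at Fank1 an APOE4 mouse was at 2.48 CPM, with the next at 2.997 CPM.

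The APOE3 contrast differed between the sexes at Btg2 and Spred2. The contrast in females minus the contrast in males was 2.35 on the log2 scale for Btg2 and -0.51 for Spred2, each with an adjusted p of 0.0266 (edgeR), and limma voom gave 0.0307 and 0.0317. APOE3 females had 69.6, 71.7 and 75.2 CPM of Spred2 and APOE3 males had 87.2, 76.6 and 86.9 CPM. APOE2 females had 74.8, 82.3 and 70.5 CPM and APOE2 males 63.5, 64.8 and 66.2 CPM, while APOE4 females had 92.8, 89.8 and 88.3 CPM and APOE4 males 71.1, 66.9 and 72.6 CPM. At Spred2 the APOE3 males were above all other males.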

How the results depend on the processing

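No paired analysis was possible because the labels give no replicate numbers shared between genotypes. Of 21 genes that differed from both genotypes, 17 to 25 were found without a filter, without the sex term, at an adjusted p under 0.01, with other scaling factors, with limma voom, with pairs fitted alone or with the mice whose titles end in e or f. The count was 13 with at least 1 CPM in 6 libraries, 13 with glmTreat against a fold change of 1.2, 13 in females alone (12 of them shared), 13 in males alone (9 shared) and 34 with DESeq2, which held all 21. For the contrast the count of 334 became 211 at an adjusted p under 0.01, 141 with glmTreat, 142 in females alone and 152 in males alone. The sex difference was called at 2 genes by edgeR and limma voom and at 53 by DESeq2. Without 1 library, 19 to 24 genes differed from both, at least 18 of them shared, and 249 to 352 were called on the contrast. Of the members, 18 stayed called without any 1 library, and the exceptions were Pou4f2 (lost in 12 of 18, adjusted p up to 0.119), Trmt61b (lost in 7, up to 0.0776) and Gm12576 (lost in 5, up to 0.0638, edgeR). Oscar, Fank1, Gm13375 and Gm13306 were tested and called in all 31 settings. No named difference changed sign. Of 616 list medians 3 moved by more than the SD of the list's median level among the 6 APOE3 mice. Most of the 616 came from leaving out 1 library, which can move a median only little, so nothing is read from this count. The cause of the changes between settings was not tested. Few reads limit Oscar in APOE3, Lilra5, Pou4f2 and the predicted genes. Of the letters that end the titles, e (males) and f (females) occur in APOE3 and APOE4 and in no APOE2 mouse, and the others occur in 1 genotype each, so what they mark cannot be told apart from genotype and sex.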

Other observations

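In lists that the report does not describe, every gene called on the contrast differed from 1 of the other genotypes and not from both. The immunoglobulin heavy chain gene Ighg2c was at 4.44 ± 0.328 CPM in APOE3, against 4.79 ± 1.55 CPM in APOE2 mice and 0.0822 ± 0.0423 CPM in APOE4 mice, and Ighm was at 31.0 CPM in APOE3, against 31.8 CPM in APOE2 mice and 17.5 CPM in APOE4 mice. Among cilium genes Mns1 was at 2.92 ± 0.358 CPM in APOE3, against 9.27 ± 0.873 CPM in APOE2 mice and 3.05 ± 0.304 CPM in APOE4 mice, Tekt1 was lower in APOE3 than in APOE2 and Ccdc153 was higher. In the complement list Cd59a, which protects cells from the membrane attack complex, was at 13.1 ± 1.27 CPM in APOE3, against 6.21 ± 1.44 CPM in APOE2 mice and 13.3 ± 0.974 CPM in APOE4 mice.

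The first 5 Mb of chromosome 7 also held genes at which APOE4 was the genotype that stood apart, chosen here after their values were seen. Between 4424770 and 4604041, beyond Lilra5, Eps8l1 was at 0.701 CPM in APOE3, against 0.699 CPM in APOE2 mice and 9.86 CPM in APOE4 mice, and Ptprh was at 0.257 CPM in APOE3, against 0.228 CPM in APOE2 mice and 2.29 CPM in APOE4 mice. Rdh13, a mitochondrial retinol dehydrogenase, was at 44.3 CPM in APOE3, against 43.5 CPM in APOE2 mice and 26.0 CPM in APOE4 mice. On chromosome 6, near Gm43844, Wnt2 was called on the contrast at 4.58 CPM in APOE3, against 3.71 CPM in APOE2 mice and 3.69 CPM in APOE4 mice, with adjusted p-values of 0.0542 against APOE2 and 0.117 against APOE4 (edgeR).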
